A study of Sus scrofa with 40 samples.

Results

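ADAMTS8 was read by probe BX916975.1_1142, 1 of 15198 gene probes on a pig muscle array and 1 of the 12222 probes whose signal was strong enough to be tested. The probe was chosen by its measured values in these pigs, namely a large difference between breeds and a wide spread among pigs of the same breed and housing system. Both are therefore given as a description, without a test. The arrays measured Longissimus muscle (LM) RNA of 40 pigs, 20 Basque (B) and 20 Large White (LW), all castrated males of about 145 kg live weight. In each breed 10 pigs were kept in conventional housing (C), indoors on slats, and 10 in alternative housing (A), on bedding with access to an outdoor area. Litter mates were split between the housing systems. B pigs had reached a greater age at this weight on the same ration. A difference between the breeds given here thus cannot be separated from one of age or of feeding level. On each array the Cy3 dye carried the RNA of a pig and the Cy5 dye a pool made from all 40, and the dyes were not swapped. Values are log2 ratios of pig to pool, centred on the median of each array, so that 0 is the level of the pool relative to the other genes.

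ADAMTS8 is a secreted zinc metalloprotease of the ADAMTS family, whose members carry thrombospondin repeats and cut proteins of the extracellular matrix, among them proteoglycans and procollagens. ADAMTS8 itself is a weak aggrecanase and is known to restrain the growth of endothelial cells and new vessels. In skeletal muscle the substrates of such enzymes lie in the connective tissue around the fibres and vessels.

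The probe is an oligonucleotide of 60 bases. Its sequence is shown because every value of ADAMTS8 given here rests on this spot alone. The paper also measured ADAMTS8 by quantitative RT-PCR and reports a breed difference with a fold change like that of the array. Those values are not used here.
ADAMTS8 probe: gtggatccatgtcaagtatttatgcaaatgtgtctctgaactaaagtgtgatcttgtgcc
G and C make up 40% of its bases, and 31.8% of gene probes have a lower share. The longest run of bases it shares with any other gene probe is 13 on the same strand and 12 on the opposite strand. On the RefSeq map of the pig assembly Sscrofa11.1, the genes next to ADAMTS8 are LOC102165987 on one side, followed by ZBTB44, and ADAMTS15 on the other, followed by SNX19. None of these neighbours had a probe that could be named here, so ADAMTS8 could not be set beside the genes next to it.

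The ADAMTS8 spot was well above background in Cy3 on all 40 arrays, and it was saturated on 0 and marked as an outlier on 0. The signal of the pig ran from 3.16 times the local background, through a median of 22.3 times, to 213 times. In the Cy5 channel, which holds the same pool on every array, the spot signal was between 3770 and 7340 scanner units with a median of 5400, a 1.95-fold range before any centring. Centred on the array median, the log2 signal of the pool on this spot spanned 2.34, and that of the pigs 6.01. The lowest pigs thus lay close to the background in Cy3 while the pool gave a strong signal on the same spot, and their ratios rest on the weakest signals of the series.

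**Figure D1:**
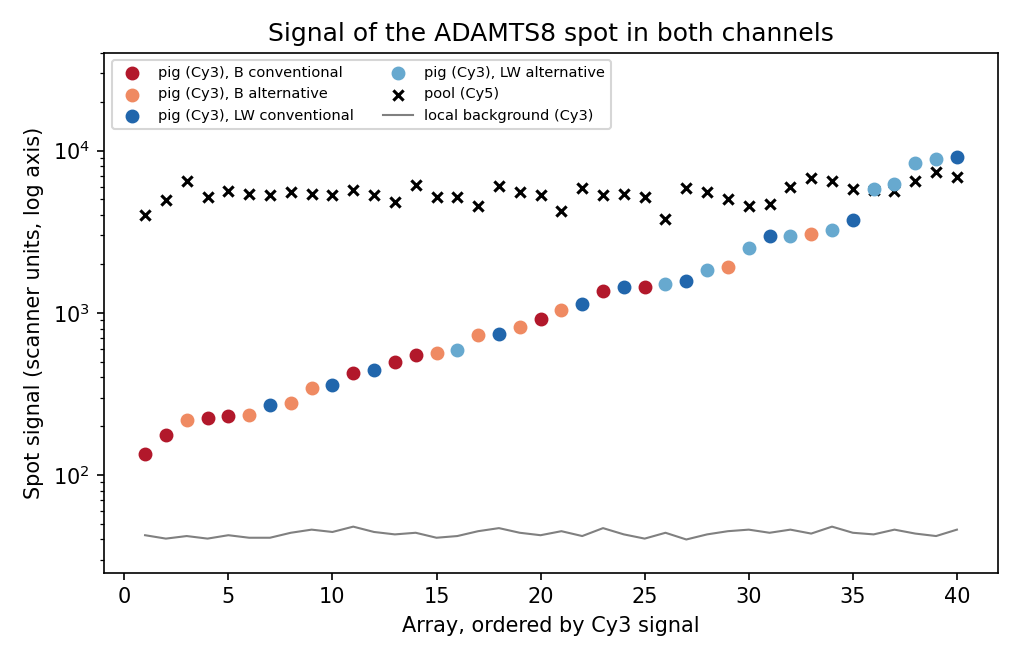
Spot signal of ADAMTS8 in scanner units (log axis) on the 40 arrays, ordered by the pig channel, with the pig (Cy3) coloured by group, the pool (Cy5) as crosses and the local Cy3 background as a line. The pig channel climbs steadily over the arrays while the pool, before centring, lies between 3770 and 7340.

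In B pigs in conventional housing the log2 ratio of ADAMTS8 had a lowest value of -4.19, a median of -2.70 and a highest value of -0.88 (n = 10). For B pigs in alternative housing these values were -3.96, -2.08 and -0.26 (n = 10). The B pigs of both housing systems covered nearly the same range, below 0 on this scale. LW pigs in conventional housing reached from -3.51 over a median of -1.22 to 1.55 (n = 10). Those in alternative housing reached from -2.33 over a median of -0.07 to 1.80 (n = 10). Values above 0 were found in 3 LW pigs in conventional and 4 in alternative housing. The place of 0 differed with the processing, and in the log2 ratios deposited by the authors 10 LW pigs and 1 B pig were above 0. The mean linear ratio of the 40 pigs was 0.655 although the pool was made from them, and the cause was not tested. The LW pigs in conventional housing were the most dispersed, with some below the median of the B pigs and others among the highest of the series.

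**Figure D2:**
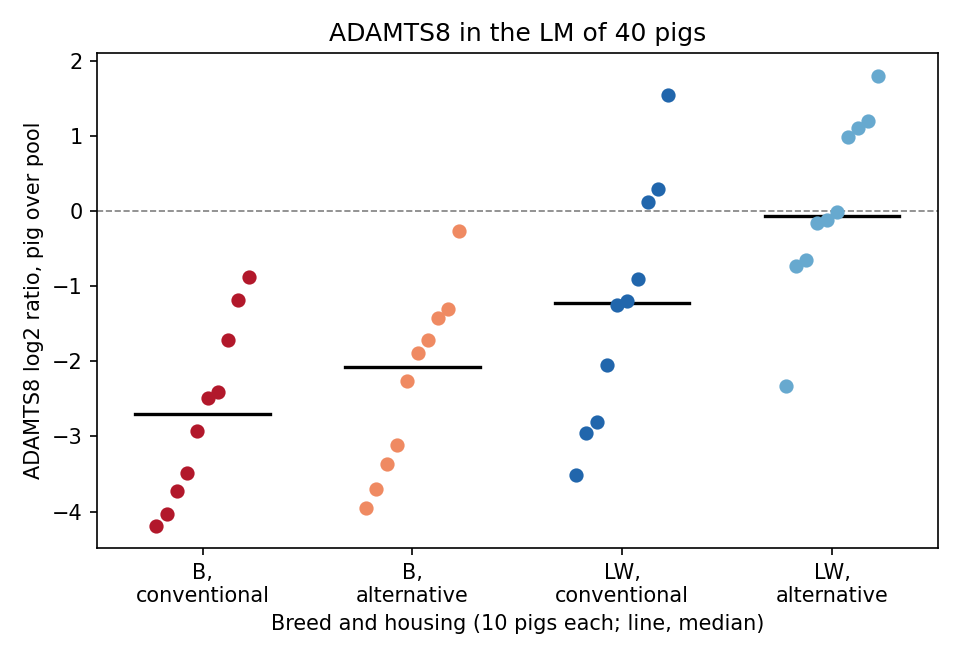
Log2 ratio of ADAMTS8 (pig to pool) for each of the 40 pigs in the 4 groups of breed and housing system. The ranges of the groups overlap, and the highest values are those of LW pigs.

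By median the groups stood in the order LW alternative, LW conventional, B alternative, B conventional. The means ± SD were 0.11 ± 1.21, -1.27 ± 1.61, -2.30 ± 1.20 and -2.70 ± 1.17 in that order (n = 10 each). Each step from a group to its neighbour was smaller than the SD of the more variable group of the pair, and neighbouring groups overlapped widely.

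The breeds overlapped as well. Of the 20 B pigs 19 were below the LW median, and 10 of the 20 LW pigs were above the highest B pig, while 5 B pigs were below the lowest LW pig. The remaining 25 pigs lay where both breeds occur. In the deposited log2 ratios the number of LW pigs above the highest B pig was 10 as well, and 6 B pigs were below the lowest LW pig. Within conventional housing 3 LW pigs were above the highest B pig, and within alternative housing 7 were. Sorted over all 40 pigs, the values formed a graded series with no gap wider than 0.70 between neighbours, and no pig of any group stood apart from its group for ADAMTS8.

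From the lowest to the highest pig the log2 ratio spanned 5.99, a 63.6-fold range, and in the deposited log2 ratios it spanned 6.73, or 106-fold. Within the groups the ratio of highest to lowest pig was 9.95-fold and 13-fold for B pigs in conventional and alternative housing, and 33.4-fold and 17.6-fold for LW pigs. On the linear scale the 8 highest pigs held 61.6% of the summed ratio of all 40, and all 8 were LW pigs, as in the deposited ratios, where the share was 61.5%. A few LW pigs thus carried most of the ADAMTS8 signal of the series.

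The model had terms for slide, for breed, for housing system and for the product of breed and housing system. Its breed difference for ADAMTS8, B minus LW, was -1.95 on the log2 scale (SE 0.40), a 3.86-fold lower level in B. Only 2 probes had a larger breed difference. Because this contrast chose the probe, no call is given for ADAMTS8, and the SE is descriptive. Of all tested probes 1160 (9.49%) were called lower in B at an adjusted P value under 0.05. The difference was -1.34 (SE 0.57) in conventional and -2.56 (SE 0.56) in alternative housing. The difference between these values is the interaction of breed with housing system, whose test is given with housing. In bulk LM RNA, fewer cells that make ADAMTS8 and less of its RNA per cell cannot be told apart. Litter and sire were not used here, so the model ignores that litter mates were split between housing systems, and the P values for housing and the interaction treat all pigs as independent.

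The arrays were scanned as 7 slides on 3 days. B was below LW on each of the 7 slides, with differences from -0.68 to -2.97. The value of -0.68 is that of slide 2, which held 1 pig of each breed. As this contrast chose the probe, these values only describe it. The differences were -1.60, -1.89 and -2.10 on the 3 scan days. The means on these days were -1.2, -2.8 and -2.6 in B and 0.4, -0.9 and -0.5 in LW. Both breeds were thus highest on scan day 1, which held 6 arrays, 4 of alternative and 2 of conventional housing. Neither slide (limma moderated F, P = 0.368, adjusted P value 0.608) nor scan day (P = 0.0922, adjusted P value 0.327) passed the test for ADAMTS8, where 1.51% of tested probes were called for slide and 4.17% for scan day.

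Housing system was not used to choose the probe and was tested. In alternative housing 9 of 10 LW pigs were above the median of LW pigs in conventional housing, and 6 of 10 B pigs were above the median of B pigs in conventional housing. Over both breeds ADAMTS8 was higher in alternative housing by 0.84 (SE 0.41, 95% interval -0.0027 to 1.68), the largest housing estimate of the 12222 probes. Its P value was 0.0507, which ranked 343, and its adjusted P value was 0.9999. The interval thus reached from no difference to a large one. In limma 0 probes were called for housing (0%), and 336 had an unadjusted P value under 0.05. The two-step analysis, which removed slide beforehand from 2385 probes only, also called 0. Its estimate for ADAMTS8 was 0.89, the same as with slide left out of the model.

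Within B pigs the housing estimate, which turned to -0.16 (SE 0.46) with array weights, was 0.22 (SE 0.57, P = 0.694, adjusted P value 0.9987). Within LW pigs it was 1.45 (SE 0.59, 95% interval 0.26 to 2.64, P = 0.0184, adjusted P value 1), a 2.73-fold higher level in alternative housing that did not pass the adjustment over all probes. The interaction, the housing difference of B minus that of LW, was -1.22 (SE 0.80, 95% interval -2.86 to 0.41, P = 0.136, adjusted P value 0.974). A larger effect of housing in LW than in B was therefore not shown, and neither was an equal effect. For the interaction limma and the two-step analysis each called 0 probes (0%), with 312 at an unadjusted P value under 0.05 in limma.

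The plain housing difference was uneven over the arrays. Alternative minus conventional was 1.54, 0.81 and 0.40 on the 3 scan days, and from -0.18 to 2.04 on the 6 slides that held both systems. Slide 2 had pigs of alternative housing alone. These are differences of means with breed not taken out. The breeds were unevenly split between the systems within slides, so these values also carry part of the breed difference. On slide 5, which gave 2.04, the pigs of alternative housing were mostly LW and those of conventional housing mostly B. When arrays were weighted by quality the housing estimate of the model was 0.41. The array with the lowest weight, 0.148, was that of LW alternative replicate 18, which was also the highest pig for ADAMTS8 on the scale used here, though at rank 4 in the deposited log2 ratios and rank 3 by Cy3 signal. Next came B alternative replicate 15, with 0.195. Without these 2 arrays the housing estimate was 0.61, the interaction -1.18 and the breed difference -1.87.

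The spread of ADAMTS8 within groups was among the widest on the array. Its pooled SD within the 4 groups was 1.31 on the log2 scale, 7.27 times the median of 0.18 over tested probes, and ranked 4 of 12222. The rank within single groups was 4 and 5 in B conventional and alternative, and 1 and 6 in LW conventional and alternative. The probes with a wider spread had no symbol here, since symbols could be given only to genes that the study listed as higher in LW. Among the 683 tested probes with such a symbol ADAMTS8 was the widest. It came before ANKRD1, a stress-responsive muscle protein that binds titin, with 1.19. Next were PGM1, which converts glucose phosphates, with 0.91 and 0.90 on its probes, and NRN1, a neuritin, with 0.78.

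Both channels were looked at for the spread. With each channel centred on the median of its array, the SD of the ADAMTS8 spot was 1.31 in Cy3, where the median probe had 0.26, and 0.43 in Cy5, where the median probe had 0.27. In the pool channel the SD of ADAMTS8 was thus above that of most tested probes too, at rank 2177 of 12222, though far below its SD in the pig channel. Of 401 probes with a similar pool signal, 0 had a larger SD of the log2 ratio, while 364 had a larger SD in the pool channel. The part of the spot itself in the spread was not tested.

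**Figure D3:**
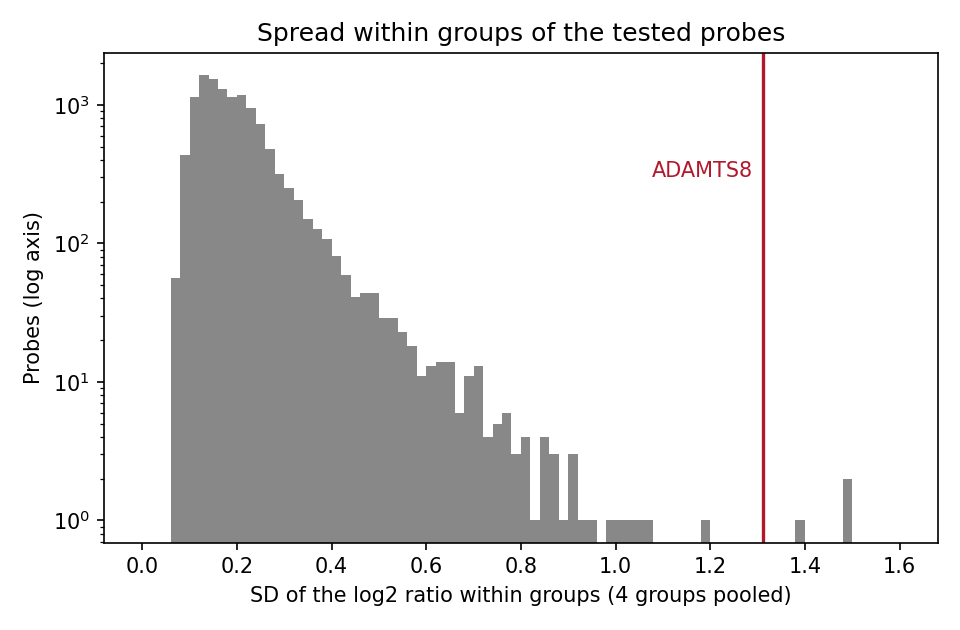
Pooled within-group SD of the log2 ratio for the tested probes, as a histogram with a log axis of probe counts and a line at ADAMTS8. ADAMTS8 lies at 1.31, far above the median of 0.18.

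Array quality was set beside the deviation of each pig from its group mean, with a two-sided permutation test within groups for 3 measures over 40 arrays. For the median Cy3 signal r was -0.112 (P = 0.541, adjusted P value 0.717) and rho -0.121 (P = 0.474, adjusted P value 0.923). For the number of probes well above background r was -0.0620 (P = 0.717, adjusted P value 0.717) and rho -0.0865 (P = 0.616, adjusted P value 0.923). For the SD of all log2 ratios of the array r was -0.0836 (P = 0.613, adjusted P value 0.717) and rho 0.0143 (P = 0.932, adjusted P value 0.932). No relation with ADAMTS8 was detected for these measures. Without the 2 arrays farthest from the median of each measure, r was -0.0409, -0.256 and -0.0337 in the same order. Within the 3 scan days, which held 6, 20 and 14 arrays, r was -0.0160, -0.168 and -0.301 for the median signal, 0.756, -0.544 and 0.404 for the number of probes, and 0.350, -0.418 and 0.151 for the SD. The signs of the last 2 measures differed between days.

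Among the probes named by their r and those at either end of a gene list, 4 pigs stood apart from their group at 2 or more. They were B conventional replicates 8 and 10, LW conventional replicate 8 and LW alternative replicate 13. Replicate 10 of B conventional (-4.19), replicate 8 of LW conventional (-3.51) and replicate 13 of LW alternative (-2.33) were also the pigs with the least ADAMTS8 of their groups. The main values, and those of named genes that moved much, are also given without these pigs, a choice made after seeing the data. LW conventional replicate 4 stood apart at 2 probes, PLBD1 and ANKRD1, once all other probes named in the text were looked at, and was not left out. Since the 4 pigs were picked at probes used here and 3 of them were lowest for ADAMTS8, a lower r without them is in part built into the choice. Without them the breed difference of ADAMTS8 was -2.05, the housing estimate 0.65, the interaction -1.46 and the spread 1.20.

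Probes that moved with ADAMTS8 among pigs of the same group were sought by Pearson r over the 40 pigs, after breed, housing system, their interaction and slide had been taken out of every probe. These probes were chosen on the values that describe them, and the points share the same arrays, slides and pool, so r is given without a test. At r of at least 0.6 there were 57 probes, and at -0.6 or below there were 6. For the median tested probe these numbers were 46 and 5, and 53.1% of probes had fewer than 57. The highest r of ADAMTS8 with any probe, 0.775, was close to the median of such values, 0.768. In the number and closeness of its companions ADAMTS8 was an ordinary probe, in contrast to its spread.

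Of the 57 probes 56 could be followed in all 4 groups, and the sign of r was positive in every group for all 56. As the 57 were chosen by r over these same pigs, a positive sign within groups is in part built into the choice. The median r was 0.594 and 0.586 in B conventional and alternative, and 0.729 and 0.724 in LW conventional and alternative. Leaving out the 2 pigs farthest from the rest for ADAMTS8, LW conventional replicate 7 and LW alternative replicate 18, gave r from 0.489 to 0.775, with 30 probes still at 0.6 or above. Without the 4 pigs that stood apart, 29 of the 57 were still at 0.6 or above. Membership near the threshold thus shifted with a few pigs, while r was positive for all 57 without the 2 farthest.

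All companions spread less than ADAMTS8 itself, with a median SD within groups of 0.22 and a highest of 0.94, beside 1.31. The slope of the 57 probes on ADAMTS8 had a median of 0.107 log2 units per log2 unit, between 0.0438 and 0.479. Their share of breed calls was near the background, since 5 of the 57 (8.77%) were called lower in B, beside the 9.49% of all tested probes, and 7 (12.3%) were called higher in B, beside 11.7%. For housing 0 of the 57 were called, as for all probes in limma. Of the 6 probes with negative r, limma called 0 for breed, where 21.2% of all tested probes were called, a number too small to read anything from.

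The highest r, 0.775 (rho 0.741), belonged to CA780367.1_1047, a probe without a symbol here, with r of 0.875, 0.721, 0.756 and 0.853 in B conventional, B alternative, LW conventional and LW alternative. It was 0.768 (rho 0.731) for BQ602956.1_1009, also without a symbol. In the Cy3 channel alone after Rquantile normalization, which changes channel and normalization together, BQ602956.1_1009 was at 0.381 and CA780367.1_1047 at 0.765. The lowest r was -0.688 (rho -0.710) for BM484072.1_6840, followed by -0.676 (rho -0.648) for CF361667.1_1121. BM484072.1_6840 was well above background in Cy3 on only 17 of the 40 arrays, so its value rests on weak signals. CF361667.1_1121 was well above background on all 40, as were 3 of the 6 probes with r of -0.6 or below. The longest run of bases that the ADAMTS8 probe shared with any of the 57 was 9 on the same and 8 on the opposite strand, shorter than its longest run with other probes.

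Of the 57 probes 5 had a symbol, PMEPA1, PLBD1, ACY1, RBM9 and PIGS. Symbols could be given only to genes that the study listed as higher in LW, since its list of genes higher in B could not be joined to the probes here. The named companions are therefore not a fair sample of all 57.

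PMEPA1, a membrane protein that dampens transforming growth factor beta signalling, came closest among named genes with r of 0.692 (rho 0.690). Its log2 ratio ran from -1.14 over a median of -0.60 to 0.09 in B conventional, and from -0.97 over -0.61 to -0.01 in B alternative. In LW conventional it ran from -0.75 over -0.19 to 0.83, and in LW alternative from -0.56 over -0.04 to 0.52. Like ADAMTS8, PMEPA1 had its higher values in LW pigs and overlapped between breeds, within a much narrower range. Its r within groups was 0.928, 0.625, 0.695 and 0.507 in the order B conventional, B alternative, LW conventional, LW alternative. It was 0.775 without the 2 farthest pigs and 0.582 without the 4 pigs that stood apart.

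PLBD1, a phospholipase B-like protein of the lysosome, had r of 0.676 (rho 0.670). Its medians were -0.78 and -0.55 in B conventional and alternative, and -0.44 and -0.02 in LW conventional and alternative. The groups of B and LW overlapped. Within groups r was 0.715, 0.0132, 0.771 and 0.825, so that in B alternative pigs PLBD1 did not follow ADAMTS8. Without the 4 pigs that stood apart r was 0.648.

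**Figure D4:**
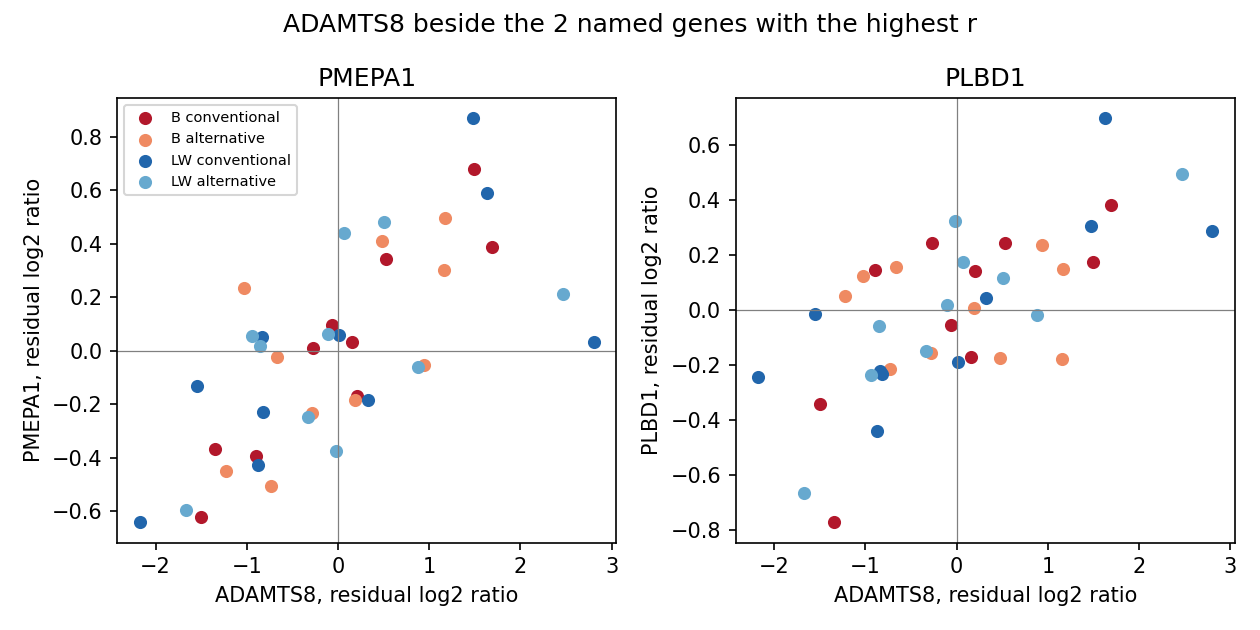
Residual log2 ratio of PMEPA1 and of PLBD1 against that of ADAMTS8 in the 40 pigs, coloured by group, each value being what the model of breed, housing system and slide left unexplained. PMEPA1 follows ADAMTS8 with r of 0.692 and PLBD1 with r of 0.676.

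ACY1, an aminoacylase that frees amino acids from their acetylated forms, had r of 0.625 (rho 0.636). RBM9, a regulator of splicing, had 0.613 (rho 0.635), and PIGS, a subunit of the enzyme that attaches lipid anchors to proteins, had 0.602 (rho 0.617). PIGS was the named gene just inside the threshold and TSPAN9, a tetraspanin, the one just outside, at 0.581 (rho 0.469). Without the 4 pigs that stood apart, r was 0.488 for ACY1, 0.499 for RBM9 and 0.547 for PIGS.

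Below the threshold came GALNT1, which starts mucin-type glycosylation, with r of 0.579, DNAJA4, a co-chaperone, with 0.562, SSPN, a member of the dystrophin complex, with 0.561, and LRP6, a co-receptor for Wnt proteins, with 0.556. SSPN had r of 0.408 in B conventional, -0.346 in B alternative, 0.795 in LW conventional and 0.807 in LW alternative. Without the 4 pigs that stood apart SSPN was at 0.383, LRP6 at 0.424, DNAJA4 at 0.440 and TSPAN9 at 0.411. GALNT1 was at 0.579 with slide in the model and at 0.288 without it. With the replicate number as a block in place of slide, GALNT1 was at -0.0568, RBM9 at 0.226 and SSPN at 0.175. Of these 10 named genes PMEPA1, PLBD1, ACY1, SSPN and LRP6 were called lower in B, with breed differences of -0.49, -0.51, -0.30, -0.33 and -0.22. Being taken from genes higher in LW, they are no independent evidence of a shared breed difference.

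With slide in the model no named gene reached -0.6. The lowest were PHKA1, a subunit of muscle phosphorylase kinase, with r of -0.472 (rho -0.456), and HFE2, which encodes the iron regulator hemojuvelin, with -0.463 (rho -0.414). HFE2 was at -0.905 in LW conventional and at 0.47 in LW alternative, so that its pooled value joins groups of opposite sign. MTMR9, a myotubularin-related protein, had -0.448 and MYLIP, a ubiquitin ligase for the low density lipoprotein receptor, also -0.448, and C1ORF112 had -0.433. MYLIP was at -0.222 without the 4 pigs that stood apart, PHKA1 at -0.366 and HFE2 at -0.383. In the Cy3 channel alone after Rquantile normalization HFE2 was at -0.028. With the replicate number as a block in place of slide, MTMR9 was at -0.178, C1ORF112 at -0.225 and HFE2 at -0.399. Under that block MYLIP was at -0.449 and PHKA1 at -0.627.

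Which probes counted as companions depended on the processing. Of the 57, 22 were at 0.6 or above with slide left out of the model, 24 with the Cy3 channel alone after Rquantile normalization between arrays, which changes channel and normalization together, 33 in the log2 ratios deposited by the authors, and 53 with array weights. In that Cy3 channel 51 of the 57 had a positive r, and in the deposited log2 ratios all 57 did. The 6 probes with negative r became 1 with slide left out, 10 without the 4 pigs that stood apart, 12 in the Cy3 channel after Rquantile normalization, 17 in the deposited log2 ratios, 19 without the 2 arrays of lowest weight, 20 with the processed signals of the scanner software, 22 with loess normalization and 51 with the replicate number as a block in place of slide, so this number was not stable. PMEPA1 ranged from 0.464 to 0.714 over the 10 alternatives and PLBD1 from 0.513 to 0.70, both positive throughout.

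Gene groups related to ADAMTS8 by function were looked at as 13 lists of 183 genes. Probes could be named for 67 of them, giving 74 probes beside ADAMTS8. Of the 74, 43 were called lower in B, 0 higher in B and 0 for housing in limma. Since symbols come from the study's list of genes higher in LW, chosen on these samples, the direction is fixed by that choice, and 73.9% of all probes with a symbol were called lower in B. The numbers called lower in B that follow for single lists are to be read beside this share. The median r with ADAMTS8 was 0.256, beside 0.0914 for all probes with a symbol and 0.0471 for all tested probes, and 63 of the 74 were above 0, though 0 reached 0.6. The median r of the lists was 0.0941 without the 4 pigs that stood apart.

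Among enzymes of its own kind no comparison could be made, since of 32 ADAM and ADAMTS genes ADAMTS8 alone had a probe that could be named. Of the other matrix proteases and their inhibitors 2 had probes. SERPINE2, an inhibitor of serine proteases, had r of 0.482 and a breed difference of -0.30 (SE 0.08) on the log2 scale. That difference is a description, since genes with a symbol were chosen as higher in LW on these samples. CTSK, the collagen-degrading cathepsin K, had 0.173 and was not called. Their median of 0.327 became 0.120 without the 4 pigs, and SERPINE2 was at 0.326.

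The proteoglycans, among which the family has known substrates, gave 6 probes with a median r of 0.295. Of these 3 were called lower in B, beside 73.9% of all probes with a symbol. DCN, which encodes decorin, had the highest r with 0.508, and CD44, the hyaluronan receptor, the lowest with -0.0791. BGN, which encodes biglycan, had 0.296 and a breed difference of -0.45 (SE 0.13), likewise a description. When the 4 pigs were left out, the median r of the proteoglycans was 0.118 and DCN was at 0.287.

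Collagens and genes of matrix assembly gave 23 probes of 19 genes, with a median r of 0.327. Of the 23 probes 16 were called lower in B, beside 73.9% of all probes with a symbol. LEPREL4, of the family of collagen-modifying leprecans, was highest at 0.547, and CRTAP, a partner of collagen prolyl hydroxylation, lowest at -0.202. SPARC, a collagen-binding matrix protein with a large breed difference of -1.47 (SE 0.16) and -0.68 (SE 0.09) on its probes, had r of 0.330 and 0.325. The median r of this list was 0.0629 without the 4 pigs, and LEPREL4 was at 0.337. Without the 2 arrays of lowest weight, another choice made after seeing the data, the median was 0.339. The value for the collagen genes thus moved with which pigs were left out.

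Genes of vessels and their growth gave 16 probes of 15 genes, with a median r of 0.197. Of the 16 probes 11 were called lower in B, beside 73.9% of all probes with a symbol. COL15A1, a collagen of the vessel basement membrane zone, had 0.393, CD248, a pericyte and fibroblast receptor, 0.364, VASH1, an inhibitor of vessel growth, 0.331, and STAB1, a scavenger receptor, -0.0834. Both were lower without the 4 pigs, the median at 0.111 and COL15A1 at -0.0206.

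Genes of the early response to stimuli, which rise within minutes of stress or growth signals, gave 13 probes with a median r of 0.00838. Of these 7 were called lower in B, beside 73.9% of all probes with a symbol. HBEGF, a growth factor of the epidermal growth factor family, was highest at 0.537 and RND3, a small GTPase, lowest at -0.283. The median was 0.0824 without the 4 pigs, and HBEGF was at 0.388. ANKRD1, the named gene next to ADAMTS8 in spread, had r of 0.377 with it, from -0.0835 in B conventional to 0.715 in LW conventional. Most of the variation of ADAMTS8 was thus not shared with ANKRD1.

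The markers of the muscle fibre were well above background on all 40 arrays for each of the 8 probes of 7 genes. Their r with ADAMTS8 lay between 0.246 for TPM1 and 0.402 for TPM3, both tropomyosins of the contractile filaments, with a median of 0.322. It was 0.0694 without the 4 pigs, and 3 of the 8 probes were called lower in B, beside 73.9% of all probes with a symbol.

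Markers of fibroblasts gave 5 probes of 3 genes, and 3 of the probes were called lower in B. For all probes with a symbol this share was 73.9%, which also stands beside the counts of calls that follow. The r of the fibroblast probes ran from 0.324 for COL1A2 to 0.508 for DCN, with a median of 0.430. The median was 0.234 without the 4 pigs, still the highest of the lists of cell types, and the COL1A2 probe with 0.324 was then at 0.0342. By group the median was 0.240 and -0.380 in B conventional and alternative, and 0.604 and 0.799 in LW conventional and alternative. The proteoglycans (-0.192), the collagens and matrix genes (-0.283), the muscle fibre markers (-0.282) and the leukocyte markers (-0.066) also had a negative median in B alternative. Their medians were positive in the other groups. The smooth muscle and pericyte markers had the opposite signs in B pigs, with -0.232 in conventional and 0.056 in alternative housing. All 5 fibroblast probes are also members of the proteoglycan or the collagen list, so these lists do not count separately. In B alternative DPT and COL1A2 had negative r, and DCN was at 0.0789. Markers of smooth muscle and pericytes, ACTA2, MYL9 and PDGFRB, had a median of 0.293, with 2 of 3 called lower in B, and a median of 0.156 without the 4 pigs, when ACTA2 was at -0.188. Leukocyte markers had a median of 0.140, with 3 of 4 probes called lower in B, and of -0.0187 without the 4 pigs, and the haemoglobin gene HBA2 had -0.00506 over its 2 probes, 0 of them called, and 0.110 without the 4 pigs. Endothelium and adipocytes had 0 probes that could be named, so the levels of ADAMTS8 could not be set beside either. The part of cell composition in the spread of ADAMTS8 was not tested.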

How the data were processed

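LM RNA of 40 pigs was measured on 40 two-colour arrays, 1 pig (Cy3) against a pool of all pigs (Cy5) on each. The authors scanned the arrays and deposited the intensity of each spot, extracted with Agilent Feature Extraction 9.5, as raw signal and background and as processed signal. They also deposited log2 ratios in a series matrix, whose array medians lie between -0.0148 and 0.0261. For ADAMTS8 these log2 values, deposited by the authors, ran in the direction of pig over pool (r = 0.993 with the values used here, 0.23 higher on average).

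In R 4.3.3, limma 3.58.1 corrected the background by normexp with an offset of 50, after which the log2 ratio was taken and the array median subtracted. Control spots and outlier spots were left out. Testing needed a Cy3 signal well above background on 10 or more arrays of either breed, and a probe was called at an adjusted P value under 0.05 (Benjamini-Hochberg over 12222 probes). Breed, housing system, the product of both and slide were the terms of the model, whose residuals gave r. A probe needed 30 arrays for r, which left 12209. Permutation tests used 100000 resamples. The programs were tested on simulated data.

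Probes named are ADAMTS8, the 10 with the highest and the 10 with the lowest r, the 10 highest and 5 lowest among those with a symbol, and members of the 13 gene lists. Of those without a symbol only the first few are given. Symbols come from the study's list of genes higher in LW. ADAMTS8 and the lists were chosen with earlier results of these data known. Which part of the transcript the probe reads is not known here. The labels used here give no litter, sire or slaughter session, and the methods state 2 pigs per litter, split between the housing systems, a pairing the model could not hold. Array depth does not apply, and the number of pigs limits the precision. Alternatives changed the background correction, normalization, outlier spots, slide, weights, threshold and pigs used.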

Additional observations from a re-analysis of the deposited data

Results flagged for a closer look

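In 22 of 200 groups of 10 pigs (11%), looked at for 52 probes of genes named in the text, the highest or lowest pig lay far from the nearest other pig relative to the range of its group. Chance flags about 1 in 20 groups. ADAMTS8 was not among them, with an end gap of at most 0.387 of the range of a group, below the critical value for 10 pigs.

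LW conventional replicate 8 stood apart at 8 probes, with log2 ratios of -2.75 for ACTA2, -1.56 for COL1A2, -1.53 for CA780367.1_1047, -1.35 and -0.93 for the probes of DPT, -1.34 for COL15A1, -1.28 for LEPREL4 and 0.95 for MYLIP. It was high for MYLIP and low for the others. B conventional replicate 10 stood apart at 3 probes, with -1.02 for TPM1, -0.92 for ACY1 and -0.91 for DCN. LW alternative replicate 13 was low for DCN (-1.03) and TPM3 (-0.77). All 3 pigs had the lowest ADAMTS8 value of their group. B conventional replicate 8 was low for PHKA1 (-0.69) and high for CRTAP (0.31).

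In other pigs 1 or 2 probes stood apart. LW conventional replicate 4 had 0.38 for PLBD1 and 1.12 for ANKRD1, and LW conventional replicate 7, the LW conventional pig with the most ADAMTS8, had -1.02 for HFE2. LW alternative replicate 14 had -0.18 for PIGS. In B alternative, replicate 15 had -1.13 for STAB1, replicate 18 had 0.39 for RND3 and replicate 20 had 0.30 for VASH1. What sets these pigs apart was not tested.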

How the results depend on the processing

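The breed difference of ADAMTS8 was between -2.15 and -1.87 over 12 alternatives and between -2.12 and -1.81 when each pig was left out in turn. The housing estimate lay between 0.41 and 0.96 over 13 alternatives and between 0.69 and 0.97 without single pigs, and its adjusted P value was never under 0.953. The interaction lay between -1.46 and -0.98 over 14 alternatives and between -1.48 and -0.96 without single pigs. Of the lists, 45 to 56 probes were called for breed over 3 alternatives, and the spread was between 1.20 and 1.48 over 10. With array weights the housing estimate within B pigs turned to -0.16 (SE 0.46), and the cause was not tested.

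The 57 probes at r of at least 0.6 became 102 in the Cy3 channel alone after Rquantile normalization, which changes channel and normalization together, and 30 with slide left out of the model, which for this count is the same as 30 with deviations from group means. Thresholds of 0.5 and 0.7 gave 230 and 6 probes. The cause of the other changes was not tested.

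With the replicate number as a replicate block in place of slide, which changes both together, the breed difference was -1.92, the interaction -0.98 (adjusted P value 0.895, in a range of 0.863 to 1 over its alternatives), the spread 1.38 and the number of covarying probes 141. Housing has no value under this block, since numbers 1 to 10 are conventional and 11 to 20 alternative. Whether pigs of the same number in both breeds form pairs was not tested. The profiles of such pigs had r between -0.359 and 0.343 with a median of -0.018, and 4 of 20 had their own number as the best match. Array weights were not run for the spread. Leaving out the 2 arrays of lowest weight, or the 4 pigs that stood apart, was added after seeing the data and gave 47 and 38 covarying probes. Low Cy3 signal over background limits the ratios of the lowest pigs.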
